A study of Drosophila melanogaster with 12 samples.

Results

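The genes described here encode accessory gland proteins (Acp) and seminal fluid proteins (Sfp) of the male fly. They are the 42 genes, of 13554 in the expression table, whose symbol reads Acp followed by 2 digits (15 genes) or Sfp followed by a digit (27 genes). The rule used names alone and no measured value, and 1 cuticle gene of the Acp65A locus was left out. SP, the sex peptide gene, carries another symbol in the table and was therefore described with the related genes.

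The paired accessory glands of Drosophila melanogaster males secrete most of the proteins that are passed to the female with the sperm. These proteins change the behaviour and physiology of the mated female: they raise egg laying, lower her readiness to mate again, hold sperm in storage and control proteolysis in the reproductive tract. The glands are built of many main cells and a few secondary cells, and their secretory proteins are used up at mating and made anew.

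Whole bodies of 5-day-old males were profiled on Affymetrix Drosophila Gene ST arrays, with 10 flies pooled in each of 12 samples and 3 samples in each of 4 groups. The control was the w1118 stock, and the mutant was homozygous for dSTINGΔ in a w1118 background. In dSTINGΔ the 5′ end of dSTING (CG1667), a gene of innate immune signalling, was lost together with its translation start when a nearby transposon was mobilised. Each genotype was sampled fed, on regular food throughout, or starved, on moist paper for the last 24 hours, and all 4 groups were males of the same age carrying the w1118 allele. Each genotype was 1 stock, so the deletion and any other difference between the stocks cannot be told apart. Nothing in the labels says that the replicates came from separate cultures, so p-values measure the spread between these samples, which may be technical.

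The array signal is on a log2 scale, where a difference of 1 is a 2-fold change, and the table ran from 1.11 to 12.24. Genes were compared between groups but not with each other, since probes differ in brightness. The dSTING probes read 5.24 to 6.28 in the 6 control arrays and 1.98 to 2.57 in the 6 dSTINGΔ arrays. Of the 42 genes, 33 lay above the median signal of the table, and the chorion, vitelline membrane and yolk genes listed as female markers had group medians between 3.3 and 3.5. A gene was called changed at a Benjamini-Hochberg adjusted p under 0.05 in a limma fit over all 13554 genes. In whole bodies, fewer accessory gland cells and less RNA per cell cannot be told apart.

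The median of the 42 genes fell with starvation in both stocks, and it lay lowest in the starved mutant. By array it was 8.04, 7.81 and 8.32 in control fed males, 7.79, 8.30 and 7.70 in dSTINGΔ fed males, 7.20, 7.31 and 7.53 in control starved males, and 6.91, 6.55 and 6.92 in dSTINGΔ starved males. The group means were 8.06 ± 0.26, 7.93 ± 0.32, 7.35 ± 0.17 and 6.79 ± 0.21 (SD, n = 3). The fed groups overlapped each other, every starved array lay below every fed array, and every dSTINGΔ starved array lay below every control starved array.

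Single arrays shifted the genes together. All 42 genes were highest, within their group, in dSTINGΔ fed replicate 2, and 37 of 42 were highest in control fed replicate 3. Over all genes, 32.0% and 38.4% were highest in these arrays. Control starved replicate 1 was the lowest of its group in 31 genes and dSTINGΔ starved replicate 2 in 37, where 32.8% and 36.9% of all genes were lowest. The same fed arrays were highest for other genes of the male tract. These were 25 of 26 other seminal fluid genes and 21 of 33 testis genes in control fed replicate 3, and 24 of 26 and 26 of 33 in dSTINGΔ fed replicate 2. Of 5 fat body genes, 4 were highest in control fed replicate 3 and none in dSTINGΔ fed replicate 2. Of 10 genes listed as accessory gland regulators, 7 were lowest of their group in each of these 2 fed arrays. Of all genes, 36.5% were lowest in control fed replicate 3 and 37.1% in dSTINGΔ fed replicate 2. The median deviation of all genes from their group mean was 0.00 and -0.01 there, so the shifts did not cover the whole array. The part of such shifts in the differences given here was not tested.

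**Figure D1:**
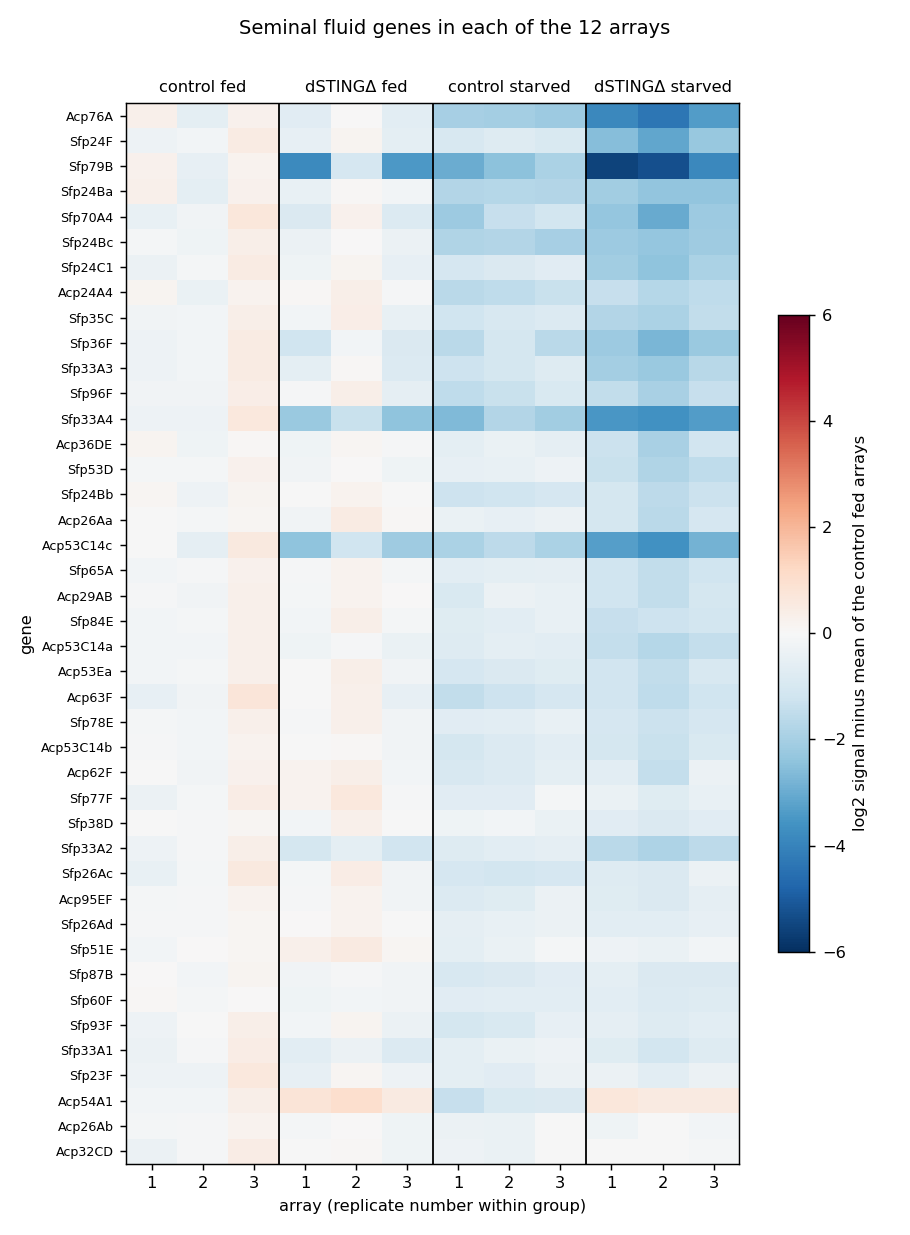
Log2 signal of each of the 42 genes (rows, ordered by their difference between fed and starved dSTINGΔ males) in each of the 12 arrays (columns), shown as the difference from the mean of the 3 control fed arrays. Blue is lower and red is higher: most rows are blue in the starved arrays, Acp54A1 is red in all 6 dSTINGΔ arrays, and Sfp79B, Sfp33A4 and Acp53C14c are blue in the fed mutant too.

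Starvation lowered most seminal fluid genes in control flies. All 42 differences between control starved and control fed males lay below 0, with a median of -0.82 (1.77-fold lower) against 0.00 over all genes. Of the 42 genes, 32 were called lower and none higher, where 5.55% of all genes were called lower and 5.68% higher. No member was higher at an unadjusted p under 0.05 either. The fall exceeded 2-fold in 16 genes, and the differences ran from -2.44 to -0.24. Leaving out single arrays changed this count more than in any other comparison of 2 groups: 12 genes were called without control starved replicate 1, 16 without control fed replicate 3 and 18 without control starved replicate 2. With the 6 control arrays fitted alone, 19 genes were called.

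The falls with the smallest p in control flies included small protease inhibitors of the Sfp24B group. Sfp24Bc, annotated in the table as a serine protease inhibitor, read 7.80, 7.68 and 8.26 in fed controls and 6.10, 6.18 and 5.92 in starved controls, with no overlap. It fell by 1.85 ± 0.15 on the log2 scale (SE, limma adjusted p = 5.3e-05), a 3.60-fold difference. Sfp24Ba, which lies close by in the RefSeq gene order, fell by 1.74 ± 0.21 (limma adjusted p = 7.5e-04) and Sfp24Bb, the gene next to Sfp24Bc, by 1.14 ± 0.15 (limma adjusted p = 0.00125). Acp24A4, a further inhibitor that the table annotates, read 10.57, 10.04 and 10.64 fed and 8.80, 8.90 and 9.06 starved, a fall of 1.50 ± 0.16 (limma adjusted p = 2.9e-04). All of these calls were made in every fit that left out 1 array.

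Acp76A, which encodes a serpin, a larger type of protease inhibitor, was among the genes called in every such fit. It read 8.10, 7.25 and 8.10 in fed controls and 5.82, 5.76 and 5.65 in starved controls, a fall of 2.07 ± 0.27 (limma adjusted p = 0.00125). Sfp33A4 fell from 5.72, 5.73 and 6.66 to 3.37, 4.27 and 3.96, by 2.17 ± 0.31 (limma adjusted p = 0.00229). At the other end, Sfp60F read 10.92, 10.77 and 10.89 fed and 10.17, 10.23 and 10.22 starved, a small fall of 0.65 ± 0.08 that was called with every array left out (limma adjusted p = 0.00114). Sfp87B fell by 0.84 ± 0.12 (limma adjusted p = 0.00193).

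Of the best known mating proteins, Acp53Ea, Acp63F and Acp95EF were called lower in starved controls, as was Acp76A above. Acp62F and Acp29AB passed the test narrowly, and Acp26Aa, Acp26Ab and Acp36DE did not pass it. Acp26Aa, the prohormone ovulin that stimulates ovulation, read 7.27, 7.18 and 7.40 fed and 6.90, 6.81 and 6.95 starved. The difference was -0.40 ± 0.18 and was not called (limma adjusted p = 0.164). Acp36DE, needed for sperm storage, differed by -0.52 ± 0.19 (limma adjusted p = 0.0877), and it was called only in the fit without dSTINGΔ starved replicate 2 (0.0284). Acp62F, a protease inhibitor that enters the female circulation, was at the threshold with -0.80 ± 0.24 (limma adjusted p = 0.0486), and its call was lost in 10 of 12 fits with 1 array left out (adjusted p from 0.051 to 0.181). Acp29AB, a lectin that helps to retain stored sperm, differed by -0.58 ± 0.17 (0.0470), and its call was lost in 9 of 12 such fits (0.0545 to 0.188). Acp53Ea differed by -0.87 ± 0.17 (limma adjusted p = 0.0104), Acp63F by -1.24 ± 0.27 (0.0157) and Acp95EF by -0.63 ± 0.15 (0.0233). Their calls were lost in 1, 2 and 3 of 12 such fits. Acp26Ab differed by -0.27 ± 0.12 (limma adjusted p = 0.177).

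**Figure D2:**
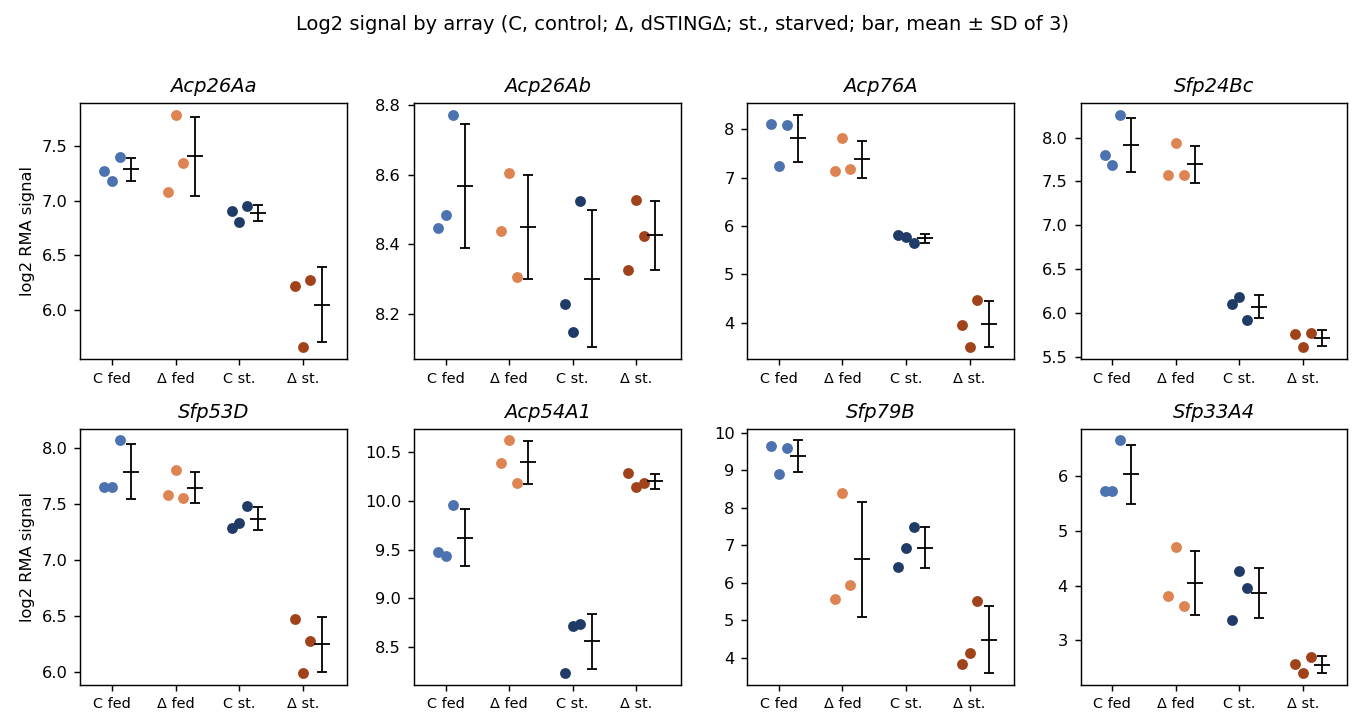
Log2 signal by array for 8 of the genes, with 3 points per group and the mean ± SD beside them. Acp26Aa is lowest in starved dSTINGΔ males, its neighbour Acp26Ab overlaps across all groups, and Acp54A1 stays at 10.14 or above in every dSTINGΔ array.

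Most of the genes fell with starvation in dSTINGΔ males as well. Of 42 genes, 35 were called lower and none higher, where 9.52% of all genes were called lower and 7.30% higher. The median difference was -1.26 (2.40-fold lower), against 0.02 over all genes, and 26 genes fell by more than 2-fold. With 1 array left out, 32 to 37 genes were called. No array is shared between the 2 starvation comparisons: 29 genes were called lower in both stocks, 3 in controls only, 6 in dSTINGΔ only and 4 in neither. These groups are counts of calls, and whether single genes differed between the stocks is given by the interaction below. The share of all genes called in both stocks was not counted.

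Acp76A had the largest fall. It read 7.15, 7.82 and 7.18 in fed dSTINGΔ males and 3.95, 3.50 and 4.46 in starved ones, a 10.6-fold difference (-3.41 ± 0.27, limma adjusted p = 4.9e-06). Sfp24F, annotated with carbohydrate binding as lectins are, went from 5.37, 6.02 and 5.27 to 3.31, 2.74 and 3.58 (-2.34 ± 0.25, limma adjusted p = 4.2e-05). Both genes had every starved array below every fed array by more than 1 log2 unit. The inhibitors fell here as well: Sfp24Bc by 1.98 ± 0.15 (limma adjusted p = 3.7e-06), Sfp24Ba by 2.09 ± 0.21 (2.4e-05), Sfp24C1 by 1.94 ± 0.22 (5.7e-05) and Acp24A4 by 1.66 ± 0.16 (1.8e-05).

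Acp36DE, Acp26Aa, Acp29AB and Acp53Ea all fell in starved mutants, while Acp26Ab did not pass the test. Acp36DE read 10.80, 11.17 and 10.97 fed and 9.75, 9.08 and 9.88 starved (-1.41 ± 0.19, limma adjusted p = 1.8e-04). Acp26Aa read 7.08, 7.79 and 7.34 fed and 6.22, 5.66 and 6.27 starved (-1.35 ± 0.18, limma adjusted p = 1.9e-04). Acp29AB fell by 1.30 ± 0.17 (limma adjusted p = 1.8e-04) and Acp53Ea by 1.25 ± 0.17 (2.6e-04). For these genes the starved and the fed arrays did not overlap. Acp62F fell by 0.94 ± 0.24 (limma adjusted p = 0.0161), a call lost without dSTINGΔ fed replicate 1 (0.0617) or replicate 2 (0.0596).

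Not every neighbour moved. Acp26Ab lies next to Acp26Aa in the RefSeq gene order (Release 6 assembly), and it read 8.44, 8.60 and 8.31 in fed dSTINGΔ males and 8.33, 8.53 and 8.42 in starved ones. The difference was -0.02 ± 0.12 (limma adjusted p = 0.926). Within each array, Acp26Aa minus Acp26Ab was -1.17, -1.30 and -1.37 in control fed, -1.36, -0.82 and -0.96 in dSTINGΔ fed, -1.33, -1.34 and -1.57 in control starved, and -2.11, -2.87 and -2.15 in dSTINGΔ starved males. The starved mutant lay apart from the other 9 arrays in this measure, which sets 1 gene against the other within an array and needs no scaling between arrays. With 3 arrays against 3, the smallest two-sided p of an exact permutation test is 0.1.

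Of the 42 genes, 16 were not picked for description gene by gene, and 11 of these were called lower, with differences down to -2.03. Acp32CD, one of the 16, is named after its values were seen, since it was the 1 gene of the 42 with a difference above 0 in starved mutants: 0.02 ± 0.17 (limma adjusted p = 0.966).

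**Figure D3:**
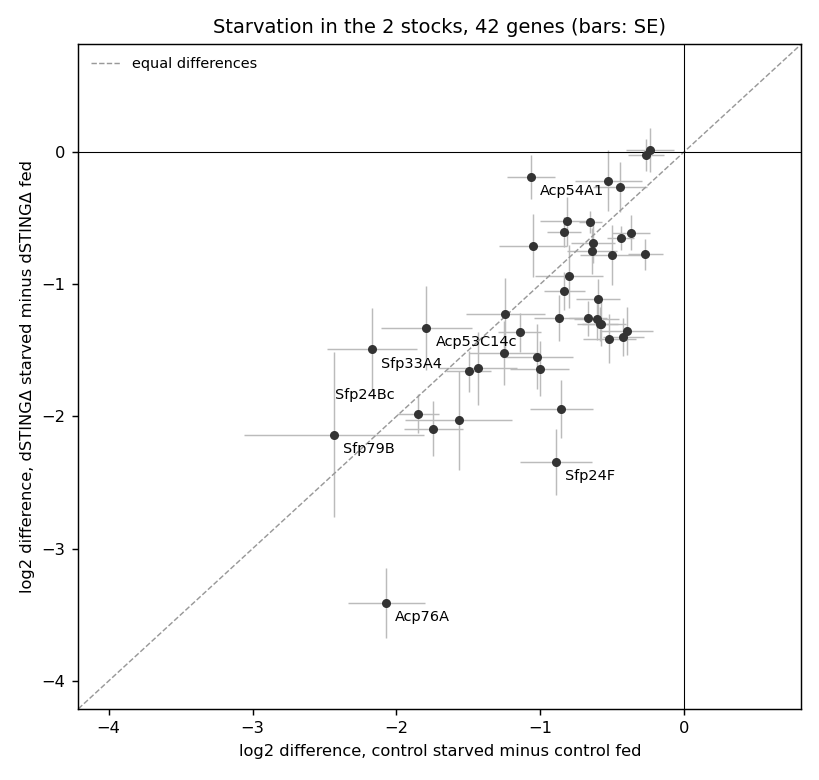
Log2 difference between starved and fed males for each of the 42 genes, in control flies (x axis) and in dSTINGΔ flies (y axis), with standard errors as bars and the line of equal differences. The 2 axes share no arrays: 29 points lie below the line, with Acp76A lowest at -2.07 and -3.41, while Acp54A1 lies well above it.

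Under fed conditions the 2 stocks differed in 5 of the 42 genes, 1 higher and 4 lower in dSTINGΔ, where 6.20% of all genes were called higher and 6.26% lower. The share of the list that was called, 11.9%, was close to the 12.5% of all genes called in either direction. The median difference was -0.07, and the fed arrays moved it in both directions. It was -0.23 without dSTINGΔ fed replicate 2, -0.18 and -0.17 without control fed replicates 1 and 2, 0.02 without dSTINGΔ fed replicate 3 and 0.07 without control fed replicate 3.

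The gene lowest in the mutant relative to control was Sfp79B. It read 9.65, 8.89 and 9.58 in control fed males and 5.57, 8.38 and 5.93 in dSTINGΔ fed males, so the mutant group was widely spread, with replicate 2 close to the controls. The difference was -2.75 ± 0.62 (limma adjusted p = 0.0130), and its call was lost without dSTINGΔ fed replicate 1 (0.0553) or replicate 3 (0.0615). In starved males it read 6.41, 6.92 and 7.48 in controls and 3.84, 4.12 and 5.51 in mutants (-2.45 ± 0.62, limma adjusted p = 0.0152). That call too was lost in 3 of 12 fits, without control starved replicate 3 (0.0504), dSTINGΔ starved replicate 1 (0.0647) or replicate 2 (0.0592). A gene beside Sfp79B in the RefSeq order, msopa, is expressed in the male accessory gland and is named after its values were seen. It was lower in the mutant as well, with arrays of 10.24, 9.80 and 10.35 against 8.29, 9.78 and 8.93 fed (limma adjusted p = 0.0376). Starved arrays read 9.02, 9.36 and 9.46 against 7.90, 7.29 and 8.22 (0.00634). The gene on the other side, RpLP0, is not described here.

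Sfp33A4 read 5.72, 5.73 and 6.66 in control fed and 3.81, 4.71 and 3.62 in dSTINGΔ fed males, with no overlap (-1.99 ± 0.31, limma adjusted p = 0.00136). Under starvation it was lower again in the mutant, with 2.56, 2.40 and 2.70 against 3.37, 4.27 and 3.96 (-1.31 ± 0.31, limma adjusted p = 0.0103), though not without control starved replicate 2 (0.0533). Its neighbour Sfp33A2 was lower by 0.93 ± 0.18 fed (limma adjusted p = 0.00432) and by 1.04 ± 0.18 starved (0.00125). Both genes were dim, with means over the 12 arrays of 4.13 and 3.72.

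The other genes of the Sfp33A name, given here after their values were seen, differed less between the fed stocks. Sfp33A3, separated from Sfp33A2 by 1 noncoding gene, differed by -0.43 ± 0.24 fed (limma adjusted p = 0.284) and fell below control by 0.96 ± 0.24 in starved males (0.0151). Sfp33A1 differed by -0.61 ± 0.19 fed (0.0534) and -0.43 ± 0.19 starved (0.133). All 8 of these differences of the Sfp33A genes lay below 0. Sfp33A4 and Sfp33A2 were picked by their p-values, and of the 42 genes 27 lay below 0 fed and 34 starved. The shared sign is therefore no test of the group.

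Acp53C14c belongs to a run of adjacent genes, in the order Acp53C14a, Acp53C14b, Acp53Ea and Acp53C14c, with Sfp53D 1 gene away. It read 6.41, 5.93 and 7.02 in control fed and 4.04, 5.27 and 4.31 in dSTINGΔ fed males (-1.91 ± 0.32, limma adjusted p = 0.00204). The other 3 genes of the run overlapped between the fed stocks, with differences of -0.26 ± 0.13, -0.06 ± 0.14 and 0.05 ± 0.17 (limma adjusted p = 0.237, 0.823 and 0.890). In starved males Acp53C14c was lower by 1.45 ± 0.32 (limma adjusted p = 0.00659) and Acp53C14a by 0.85 ± 0.13 (7.6e-04), while Acp53C14b and Acp53Ea, which is annotated for a role in sperm displacement, were not called (0.193 and 0.204).

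Acp54A1 was the 1 gene higher in the mutant. Control fed arrays read 9.47, 9.44 and 9.96 and dSTINGΔ fed arrays 10.39, 10.62 and 10.18, without overlap (0.77 ± 0.17, limma adjusted p = 0.01). Control starved arrays read 8.23, 8.71 and 8.74 and dSTINGΔ starved arrays 10.29, 10.14 and 10.18 (1.64 ± 0.17, limma adjusted p = 3.4e-05), a 3.12-fold difference. Starvation lowered it by 1.06 ± 0.17 in controls (limma adjusted p = 0.00374), and in mutants the difference was -0.19 ± 0.17 (0.493).

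**Figure D4:**
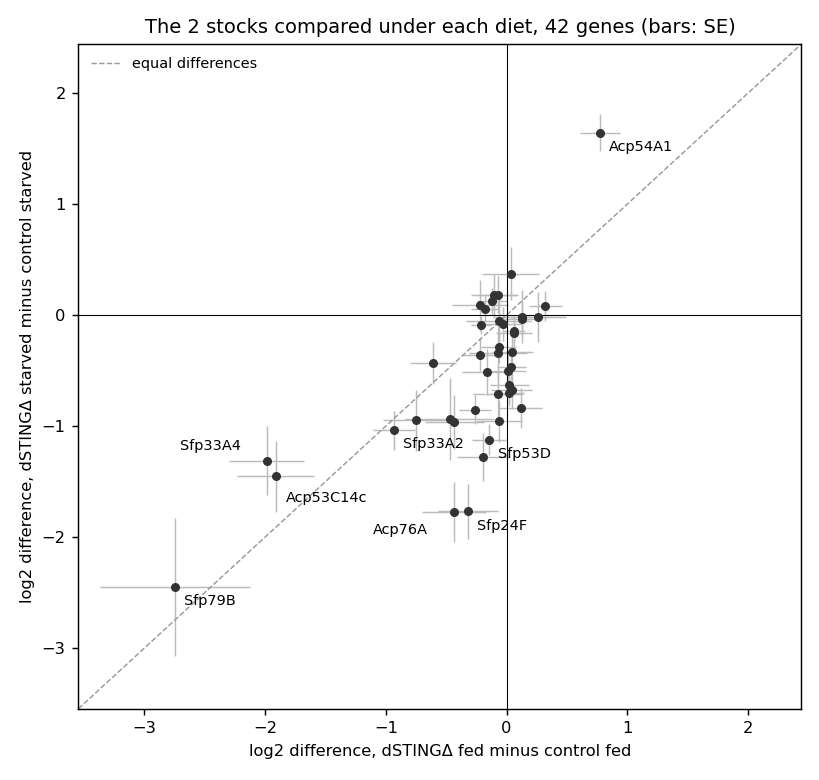
Log2 difference between dSTINGΔ and control males for each of the 42 genes, fed (x axis) and starved (y axis), with standard errors as bars and the line of equal differences. The axes share no arrays: Sfp79B, Sfp33A4, Acp53C14c and Sfp33A2 lie low on both and Acp54A1 high on both, while Acp76A and Sfp24F lie low on the starved axis alone.

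Under starved conditions 20 of the 42 genes differed between the stocks, 19 lower and 1 higher in dSTINGΔ, where 10.9% of all genes were called lower and 9.01% higher. The median difference was -0.45 (1.37-fold lower), against 0.00 over all genes. All 5 genes called in fed males were called in the same direction here, and 15 were called in starved males only. The share of all genes called under both diets was not counted. Without dSTINGΔ starved replicate 2, the array in which 37 genes were lowest of their group, 13 genes were called, 1 of them higher.

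Acp76A read 5.82, 5.76 and 5.65 in starved controls and 3.95, 3.50 and 4.46 in starved mutants, a 3.42-fold difference (-1.77 ± 0.27, limma adjusted p = 5.8e-04). Sfp24F was lower by 1.77 ± 0.25 (limma adjusted p = 3.8e-04) and Sfp24C1 by 1.28 ± 0.22 (0.00134). Sfp53D read 7.29, 7.33 and 7.49 in starved controls and 6.48, 5.99 and 6.28 in starved mutants (-1.12 ± 0.14, limma adjusted p = 1.7e-04). None of these genes was called between the fed stocks, where Acp76A differed by -0.43 ± 0.27 (limma adjusted p = 0.328), Sfp24F by -0.32 ± 0.25 (0.457) and Sfp53D by -0.14 ± 0.14 (0.564).

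Acp36DE was lower in starved mutants by 0.95 ± 0.19 (limma adjusted p = 0.00324), Acp26Aa by 0.84 ± 0.18 (0.00578) and Sfp65A by 0.70 ± 0.13 (0.00187). Acp29AB was lower by 0.68 ± 0.17 (limma adjusted p = 0.0140), a call lost without control starved replicate 2 (0.0696) or dSTINGΔ starved replicate 2 (0.066). Sfp38D was lower by 0.47 ± 0.12 (limma adjusted p = 0.0157), lost without the same arrays (0.0725 and 0.0697). Other members were not called: Acp62F differed by -0.02 ± 0.24 (limma adjusted p = 0.975), Acp63F by -0.05 ± 0.27 (0.926), Acp95EF by -0.08 ± 0.15 (0.760), Acp26Ab by 0.12 ± 0.12 (0.537) and Sfp87B by 0.05 ± 0.12 (0.800).

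By annotated function, the 9 genes annotated as protease or enzyme inhibitors gave 2 called lower in starved mutants against starved controls, the 6 annotated as hormones gave 3, and the 27 with neither annotation gave 14 lower and 1 higher. In either direction these were 22.2%, 50.0% and 55.6% of each subset, against 2705 of all 13554 genes, a share close to that of the inhibitors. The table does not annotate the serpin gene Acp76A as an inhibitor, so it is counted among the 27. With starvation, 7 of the 9 inhibitors were called lower in each stock (77.8%, against 5.55% of all genes in controls and 9.52% in mutants), with medians of -1.02 in controls and -1.55 in mutants. The 6 hormone-annotated genes had 2 called lower in controls (33.3%, median -0.46) and 4 in mutants (66.7%, median -1.28). The 27 with neither annotation had 23 called lower in controls (85.2%, median -0.83) and 24 in mutants (88.9%, median -1.23). The share of the inhibitors was therefore not above that of these 27 genes in either stock.

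The interaction asks whether starvation moved a gene by a different amount in dSTINGΔ than in control flies. It was called for 1 of 42 genes, Sfp53D, which fell more in the mutant: 0.738% of all genes were called in this direction and 0.590% in the other. Sfp53D read 7.65, 7.65 and 8.07 in control fed and 7.58, 7.81 and 7.56 in dSTINGΔ fed males, and its starvation differences were -0.42 ± 0.14 (limma adjusted p = 0.0720) and -1.40 ± 0.14 (3.0e-05). The interaction was -0.98 ± 0.20 (limma adjusted p = 0.0379), and it was lost in 8 of 12 fits with 1 array left out (0.0625 to 0.0964), these being all but control fed replicates 1 and 3 and dSTINGΔ starved replicates 1 and 3. The median interaction of the list was -0.22 against 0.01 over all genes, and it was below 0 in 29 of 42 genes. With 1 array left out the median ran from -0.33 (without control fed replicate 3) to -0.09 (without dSTINGΔ fed replicate 2), and it was -0.10 without dSTINGΔ starved replicate 2 and -0.13 without control fed replicate 2 or control starved replicate 3.

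Several genes lay just outside the threshold in this test. They were Sfp24F (-1.45 ± 0.35, limma adjusted p = 0.0667), Sfp65A (-0.71 ± 0.18, 0.0694), Acp26Aa (-0.96 ± 0.25, 0.0797), Acp54A1 (0.87 ± 0.24, 0.0844), Acp76A (-1.34 ± 0.38, 0.0938) and Sfp24C1 (-1.09 ± 0.31, 0.0962). At the adjusted threshold, the 1 call made up 2.38% of the list, against 1.33% of all genes. At an unadjusted p under 0.05, 13 genes had a negative interaction and 1 a positive one. The share of all genes was not counted there, so no reading of the list is drawn from these counts. Without control fed replicate 3, 4 genes were called in this test, among them Sfp24F (limma adjusted p = 0.0334), Sfp65A (0.035) and Sfp24C1 (0.0395). Without control fed replicate 1, 3 were called, among them Acp54A1 (0.0444) and Acp76A (0.0453), and 3 without dSTINGΔ starved replicate 3, among them Sfp24F (0.0413) and Acp76A (0.0464). With arrays weighted by quality, 13 genes were called, 12 of them with a negative interaction. The share of all genes called with these weights was not counted, so this number cannot be set against a background. With the replicate number as a block, no member was called.

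Related genes were taken from lists of textbook knowledge, some of which share genes (lectin-46Ca, lectin-46Cb, Dup99B and Est-6 each stand on 2). SP, the sex peptide that switches female receptivity and egg laying, differed with starvation by -0.74 in controls and -0.68 in mutants, both called, and by 0.17 and 0.22 between the stocks fed and starved, neither called. The sex peptide network list holds 13 genes, whose products carry SP to the sperm or receive it. With starvation, 3 were called lower in controls and 7 in mutants, and none higher. Over all genes, 5.55% and 9.52% were called lower. Sems and antr, network genes of the male, were lower in both stocks. In starved mutants against starved controls, frma, aqrs and lectin-46Ca were lower and hdly was higher by 0.77.

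The list of 26 other seminal fluid genes, among them odorant-binding proteins and serpins, had 17 called lower and none higher with starvation in controls and 18 lower and none higher in mutants. Over all genes, 5.55% were called lower with starvation in controls and 9.52% in mutants. The medians of the 26 genes were -0.67 and -0.80. Under starvation 10 of the 26 were lower and 3 higher in the mutant than in controls. Of all genes, 10.9% were called lower and 9.01% higher in that comparison. Between the fed stocks, 3 were higher and 3 lower, 23.1% of the list against 12.5% of all genes. Spn53F, a serpin, was lower in the mutant under both diets, by 1.81 fed and 2.64 starved. Other serpins went either way: Spn28F was higher in fed mutants by 1.20, and Spn77Bc, named after its values were seen, by 0.40. Spn75F was lower in starved mutants by 1.10, and all of these were called. Obp56f, an odorant-binding protein, was lower by 1.88 in starved mutants and differed by 0.25 in fed ones, and its interaction of -2.13 was called.

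The ejaculatory duct and bulb lie downstream of the glands and add their own proteins to the seminal fluid. Of 7 genes listed for them, 6 were lower with starvation in controls and 4 in mutants, and none was higher. Over all genes, 5.55% were called lower in controls and 9.52% in mutants. Est-6, the seminal fluid esterase, was higher in the mutant under both diets (0.66 and 0.39), and Anp was higher in starved mutants by 0.96, while Gld was lower by 0.89. The starved dSTINGΔ arrays lay below the starved controls for the 42 genes but not for the duct list, whose median by array, relative to control fed, was -0.73, -0.62 and -0.36 in starved controls and -0.67, -0.47 and -0.17 in starved mutants.

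Markers of other tissues were read beside these results. Of 33 testis genes, none was called lower with starvation in either stock, 2 were higher in controls and 4 in mutants. The testis medians were 0.00 and 0.23. The calls were 6.06% and 12.1% of the list, where 5.68% and 7.30% of all genes were called higher. Among 5 fat body genes, Lsp2 was lower with starvation by 2.89 in controls and 4.26 in mutants, and Rfabg, the lipophorin precursor, by 0.59 and 1.92, while Apoltp was higher by 0.37 in starved controls and differed by 0.08 in mutants. Between the starved stocks, Rfabg was lower in the mutant by 1.42 and Apoltp by 0.46, both called. Fbp1 and Fbp2 stayed near the floor, with group means from 1.91 to 3.23. Of 5 muscle genes, 1 was called lower between the fed stocks, between the starved stocks and with starvation in controls. With starvation in mutants 2 were called lower, and none was higher in any of these. The shares of all genes called lower were 6.26%, 10.9%, 5.55% and 9.52% in the same order. The medians of the muscle list were 0.05, -0.29, 0.06 and -0.35, and Act88F was the gene called in all 4 comparisons, by 0.78 to 1.07. The part of fat body or muscle change in the seminal fluid genes was not tested.

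**Figure D5:**
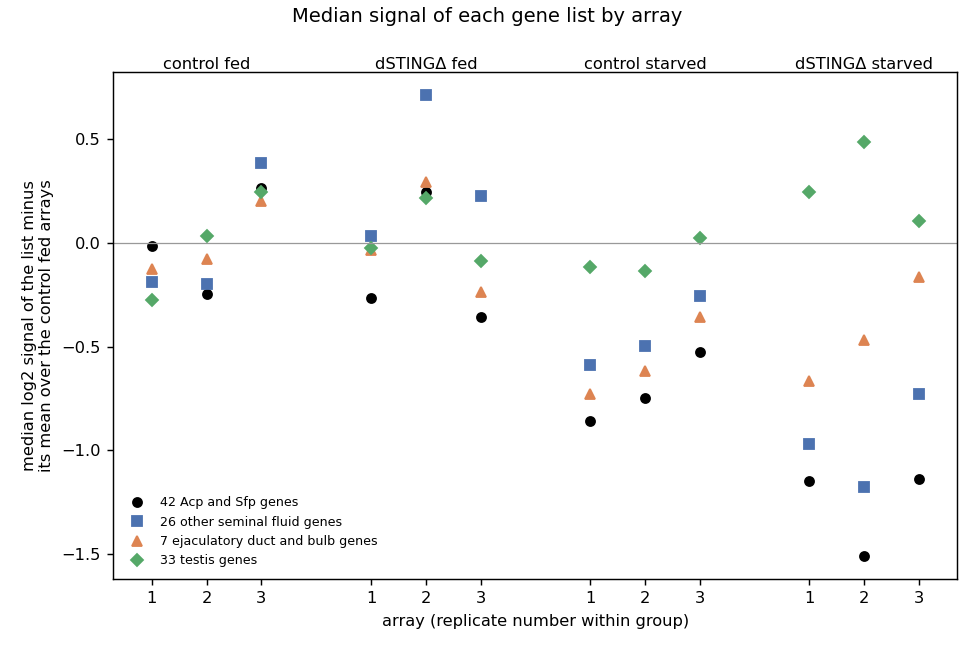
Median log2 signal of 4 gene lists in each of the 12 arrays, each drawn relative to its mean over the 3 control fed arrays. The 42 Acp and Sfp genes lie at -0.86 to -0.53 in starved controls and -1.51 to -1.14 in starved mutants, while the testis list lies at -0.14 to 0.02 and 0.10 to 0.48.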

How the data were processed

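Total RNA from whole bodies of 10 males per sample was labelled and hybridised to Drosophila Gene ST arrays by the authors. They normalized the scans by RMA with affy 1.48.0 in R 3.2.0, using an Entrez Gene probe mapping, and deposited 1 log2 expression value per gene and array for 13554 genes. RMA gives all arrays the same distribution of probe intensities, so a change shared by most genes would not be seen. The deposited table also holds columns of the authors' own comparisons (fold changes, t statistics, p-values, false discovery rates and clusters), which were not used. Its 12 value columns name the group and an array number, and each equalled exactly 1 sample of that group in the series matrix (largest difference 0.0050), whose title gave the replicate number.

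The log2 values were fitted here in limma 3.58.1 (R 4.3.3) with 1 mean for each of the 4 groups over all 12 arrays and empirical Bayes variances (8 residual and 4.50 prior degrees of freedom). The comparisons were dSTINGΔ minus control under each diet, starved minus fed in each stock, and their interaction. P-values were adjusted by Benjamini-Hochberg over all 13554 genes, and a gene was called at an adjusted p under 0.05. No low-signal filter was applied. Comparisons that share a group share its arrays and are not independent. On data simulated for the fed comparison, with 200 of 13554 genes changed by 1 on the log2 scale, 91.0% were recovered and 5.21% of calls were false. The simulated noise was independent between genes, so these rates do not cover shifts that genes share within an array.

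The genes and lists were chosen with earlier results of these data known. Members were named if their role is known from textbooks, if they were among the 6 with the smallest p in a direction of a comparison, or if they were among the 3 highest or lowest in mean signal. List genes were named from the 4 with the smallest p and any list with 5 or fewer calls. The lists covered the sex peptide network, other seminal fluid genes, the ejaculatory duct and bulb, accessory gland regulators, testis, fat body, muscle and female markers. Identifiers of 13263 genes, and of all 42 members, were found in the RefSeq gene table (Release 6 assembly). It was used for gene order, for matching the names of listed genes and for finding dSTING as CG1667. The files name no genome build, and no sequence was used.

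Alternatives were the 6 arrays of a comparison alone, the replicate number as a block, trended and robust empirical Bayes, weights by array quality, centring of each array on its median, genes above the median signal only, the series matrix values, each array left out in turn, and stricter thresholds (adjusted p under 0.01, or a fold over 1.4). With 3 arrays a group, the number of arrays limits the precision.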

Additional observations from a re-analysis of the deposited data

Results flagged for a closer look

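Sfp53D was picked out because starvation moved it by different amounts in the 2 stocks, by a test of the difference itself. The interaction was -0.98 on the log2 scale (limma adjusted p = 0.0379): every starved dSTINGΔ array (6.48, 5.99 and 6.28) lay below every starved control array (7.29, 7.33 and 7.49), while the fed arrays overlapped. The call was lost in 8 of 12 fits with 1 array left out. Groups of 3 arrays are too small for a test of single outlying arrays.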

How the results depend on the processing

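With 1 array left out in turn, the number of members called ranged from 4 to 6 between the fed stocks, 13 to 22 between the starved stocks, 12 to 34 for starvation in controls, 32 to 37 for starvation in dSTINGΔ and 0 to 4 for the interaction. The medians ranged from -0.23 to 0.07, -0.50 to -0.35, -0.91 to -0.64, -1.36 to -1.09 and -0.33 to -0.09. The median between the fed stocks was 0.03 with array quality weights, 0.07 without control fed replicate 3 and 0.02 without dSTINGΔ fed replicate 3, against -0.07. Among genes above the median signal only, 3 members were called between the fed stocks and 2 for the interaction, with 33 members tested. With only the 6 arrays of the 2 groups, 19 were called for starvation in controls, where fewer arrays estimate the spread. At an adjusted p under 0.01 the counts were 3, 11, 13 and 0 between the fed stocks, between the starved stocks, for starvation in controls and for the interaction. Array quality weights gave 13 calls for the interaction. The share of all genes called with them was not counted, and the cause was not tested. Over the 26 named members, 70 of 1560 results (gene, comparison and array left out) lost a call and 11 gained one. The 1560 include results not called in the main fit, and none changed sign while called. Of the named members called for starvation in controls, 11 of 21 lost the call in 1 or more of these fits. For starvation in dSTINGΔ, 3 of 24 did. Between the fed stocks it was 1 of 5, between the starved stocks 4 of 15, and for the interaction 1 of 1.

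The replicate numbers did not pair the samples: deviations of same-numbered arrays correlated from -0.45 to 0.37 over 18 pairs, and 4 pairs exceeded 0.1. Differently numbered arrays correlated from -0.41 to 0.40 over 36 pairs, and 12 exceeded 0.1. The highest value was that of control fed replicate 3 with dSTINGΔ fed replicate 2, which a block by number does not join. With the number as a block, 5, 19, 30, 35 and 0 members were called in the 5 comparisons, and Sfp53D had an interaction adjusted p of 0.0641.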

Other observations

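A list of 10 genes that control the accessory gland was also read. Of these 10, which included paired (prd), Abd-B, dve and the juvenile hormone receptor Met, 1 was called between the fed stocks (mfas, higher by 0.32 in dSTINGΔ), none between the starved stocks, 1 with starvation in controls (Dad, higher by 0.48) and 2 in mutants (Met, higher by 0.44, and prd, lower by 0.36). Over all genes, 12.5% were called between the fed stocks, 11.2% with starvation in controls and 16.8% in mutants. The counts on this list in these comparisons lay near the background. Between the starved stocks, 9.01% of all genes were called higher and 10.9% lower. The lowest and highest of their 10 differences between the starved stocks were -0.30 and 0.23. Of 33 testis genes, 5 were higher and 2 lower in starved mutants than in starved controls, with a median of 0.22. In either direction these calls were 21.2% of the list, a share close to that of all genes (2705 of 13554). Mst84Dd was higher by 0.88, and topi and mia were lower by 0.37 and 0.36, while Mst98Ca was higher with starvation in mutants by 0.40, all called. BG642163, another seminal fluid gene, had an interaction of -0.97 that was called, and it was lower in starved mutants than in starved controls by 0.89. These values are given with no explanation.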
